A study of Homo sapiens with 3 samples.

Results

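hsa-miR-210 is the microRNA (miRNA) best known for its response to low oxygen, and its level was examined in 3 strains of the hepatocellular carcinoma (HCC) line HCCLM3, which is of human origin. HCCLM3 is the name in the labels, whereas the study's text works with HCCLM3-R, a derivative that carries a red fluorescent protein. It was found by its name, which occurs in 1 of the 1921 rows of each count table. The parent strain carries the label of low metastasis, whereas the study's text calls its parental line highly metastatic, so the label is used only as a name. Subclone1 was labelled with a raised metastatic ability toward the lung, and subclone2 with an ability toward both lung and celiac lymph node. All strains were grown in DMEM, RNA was taken with Trizol, and no treatment, oxygen level, cell density or harvest time was given in the labels. The study describes its subclones as populations grown from single cells of metastases, so that each subclone is 1 clone, but the labels do not tie subclone1 or subclone2 to a named clone. Each strain had 1 library, therefore no difference given here has a replicate check and no p-value is given.

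A miRNA is a short strand that is cut from a hairpin precursor and guides silencing complexes to mRNAs, mainly by pairing of its seed, bases 2 to 8. When oxygen is low, the transcription factors HIF-1 and HIF-2 escape degradation and switch on a set of genes, and the gene of miR-210 is among the miRNA genes most regularly induced by them in many cell types. Its known targets include ISCU, which assembles iron-sulphur clusters for mitochondrial respiration, and EFNA3, a ligand that restrains vessel growth. In HCC cells it has been linked to invasion under low oxygen.

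The hairpin gene MIR210 lies on the minus strand of chromosome 11 (GRCh38, chr11:568089-568198). In GENCODE release 29 it sits in an intron of the long non-coding RNA gene MIR210HG (565660 to 568457, same strand). All 4 annotated MIR210HG transcripts span it, and 0 of them have an exon over it. The count tables name no arm and give no sequence. hsa-miR-210 is the older name of the strand now called hsa-miR-210-3p, and no separate row for either arm was listed. The sequences below are from RefSeq (GRCh38.p14), printed 5′ to 3′. Both mature strands are shown with the seed in capitals, because the seed sets the targets. The hairpin is shown with its 3p arm (bases 66 to 87 of 110) in capitals, because this is the arm that the listed name stands for.
hsa-miR-210-3p: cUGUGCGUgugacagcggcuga
hsa-miR-210-5p: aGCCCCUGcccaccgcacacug
MIR210 hairpin: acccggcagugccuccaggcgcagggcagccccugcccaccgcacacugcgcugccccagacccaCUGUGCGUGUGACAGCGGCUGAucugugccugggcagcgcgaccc

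The seed of hsa-miR-210-3p was its own. Among 2368 other mature names in RefSeq, 0 carried the same bases 2 to 8. Bases 2 to 7 alone were shared with 1 name, listed as hsa-miR-147b, with 2 reads in subclone2 and 0 in the other libraries. The longest run of bases shared with any other mature miRNA was 8, and with any other hairpin 9. By these measures hsa-miR-210 has no near copy in RefSeq, in contrast to several miRNAs named further on, whose levels are given as uncertain.

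First, the level of hsa-miR-210 was compared among the strains. The parent library held 184 reads of it among 7902438 counts, subclone1 203 among 3570864, and subclone2 93 among 4568075. Scaled to a library total of 1000000 (CPM), the parent level was 23.3, with an exact 95% binomial interval from 20.04 to 26.9. Subclone1 had 56.8 CPM (from 49.3 to 65.2), and subclone2 had 20.4 CPM (from 16.4 to 24.9). Subclone1 stood alone at the top, and its interval lay above the other intervals without overlap. The parent and subclone2 intervals overlapped, and their order was not resolved at this depth. At the parent's CPM, subclone1 would have held 83.1 reads in place of 203, and subclone2 106 in place of 93. All intervals cover counting error only, since the reads carry no molecular identifiers and the spread between cultures of a strain was not measured.

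**Figure D1:**
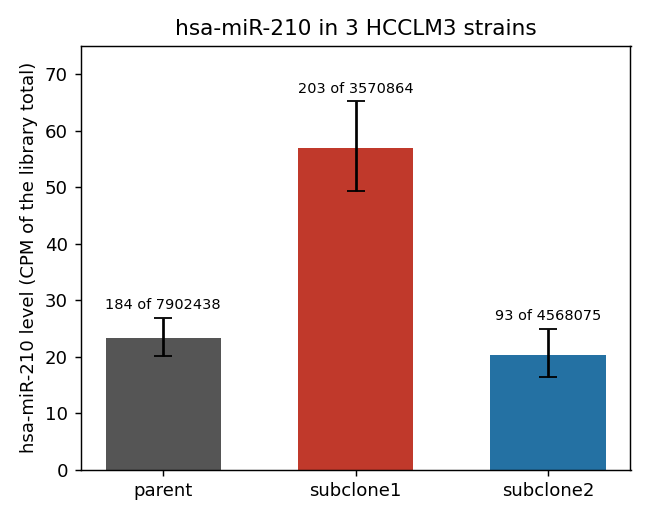
Level of hsa-miR-210 in CPM of the library total (vertical axis, from 0) in the parent, subclone1 and subclone2, 1 library each, with exact 95% binomial intervals as error bars and the read count of the library total above each bar. Subclone1 at 56.8 CPM lies above the parent at 23.3 and subclone2 at 20.4, whose intervals overlap.

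hsa-miR-210 was far from the most abundant miRNAs but above most of those detected. Its level was at or above that of 81.2% of detected miRNAs in the parent strain, 84.3% for subclone1 and 79.1% for subclone2. Among the detected miRNAs it ranked 141st of 743 in the parent, 142nd of 675 in subclone2 and 106th of 670 in subclone1. In subclone1, 1 read in 17590 was hsa-miR-210, against 1 in 42948 in the parent and 1 in 49119 in subclone2. These ranks describe read counts, which also carry the ligation bias of the library kit, and are not an order of molecule numbers.

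To ask how the lung-tropic strain differed, subclone1 was set against the parent. The level of hsa-miR-210 was 2.44-fold higher in subclone1 (exact 95% conditional interval 1.99 to 2.997), a log2 ratio of 1.29 (0.99 to 1.58). Calls were made by size, for a change of 2-fold or more whose interval excluded a ratio of 1. Only miRNAs averaging 10 CPM or more over the compared libraries entered. hsa-miR-210 was called higher by this rule, as 1 of 19 among 192 miRNAs (9.90%), while 6 (3.12%) were called lower. Some miRNAs called in either direction were under 10 CPM in 1 library and passed the minimum only through the other. Among those higher, hsa-miR-1 and hsa-miR-378c are examples. The minimum thus adds to both shares, here and in the comparisons below, whereas hsa-miR-210 was above 10 CPM in every library. Scaled to the sum of hsa-miR-16-5p and hsa-miR-191-5p in place of the total, the split was 36 higher and 2 lower, and hsa-miR-210 was called higher at 1.74. It had the 14th largest ratio of the 192. The median log2 ratio of all 192 was 0.017 (quartiles -0.30 and 0.40), so hsa-miR-210 stood 1.27 above it. The lower bound of its interval, 1.99-fold, fell just short of the threshold, so the call is lost if the whole interval must lie beyond 2-fold.

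Next, subclone2, the strain with dual tropism, was set against the parent. Here the log2 ratio of hsa-miR-210 was -0.19 (interval -0.57 to 0.17), or 0.877-fold (0.674 to 1.13), and no difference was detectable at this depth. The interval still admits a decrease of 1.48-fold or an increase of 1.13-fold. Of 187 miRNAs, 11 were called higher (5.88%) and 9 lower (4.81%), and hsa-miR-210 was not among them. Scaled to the sum of hsa-miR-16-5p and hsa-miR-191-5p, the split was 16 higher and 6 lower, and the log2 ratio of hsa-miR-210 was 0.19, again without a call. With the library total it lay in the middle of the distribution, 103rd from the highest, and 0.036 below the median of -0.15. Both subclones carry a label of lung metastasis, and the raised level was seen in subclone1 but not in subclone2.

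Finally, subclone2 was compared with subclone1 directly, which does not use the parent library. Their labels differ in the lymph node, but with 1 library per subclone tropism cannot be told apart from clone or culture. hsa-miR-210 was 2.78-fold lower in subclone2 (interval 2.17 to 3.61), a log2 ratio of -1.48 (-1.85 to -1.12), and the whole interval lay beyond 2-fold. Of 191 miRNAs, 8 were called lower (4.19%) and 3 higher (1.57%). TMM and median-of-ratios factors are computed from the bulk of the miRNAs in place of the total. With each of them the split was 5 lower and 3 higher, and hsa-miR-210 was still called lower, at -1.24 and -1.26. The upper end of its interval was then short of 2-fold, at -0.89 and -0.91. It was at -0.98 when the most abundant miRNAs (12 names) were left out of the total. Its ratio was the 4th lowest of the 191 and stood 1.31 below the median of -0.17. The comparisons share libraries in pairs, so the subclone1 library enters both calls.

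**Figure D2:**
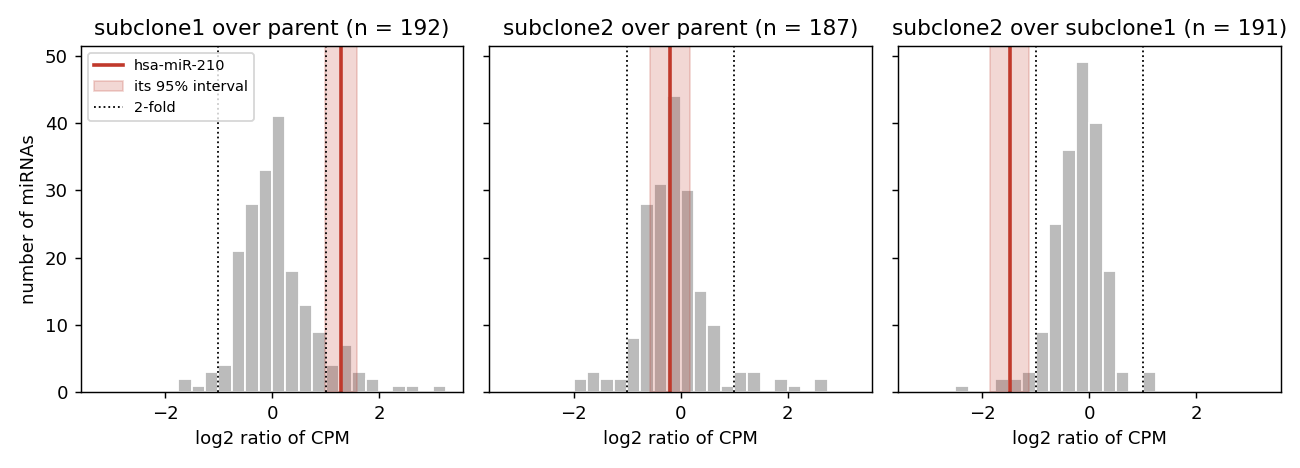
Number of miRNAs (vertical axis) by log2 ratio of CPM (horizontal axis, bins of 0.25) for subclone1 over parent (192 miRNAs), subclone2 over parent (187) and subclone2 over subclone1 (191). The red line marks hsa-miR-210 with its 95% counting interval shaded, and dotted lines mark 2-fold: it lies at 1.29, -0.19 and -1.48, toward the upper tail, in the middle and toward the lower tail.

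Low counts alone widen ratios, so hsa-miR-210 was also read beside miRNAs of a similar level, those within 2-fold of its own mean CPM in the libraries compared. That mean is set by the same values as the ratio, so the reading is a description and not a check of the calls. Of 58 such miRNAs in subclone1 against the parent, 3 had a larger ratio than hsa-miR-210, and the quartiles were -0.33 and 0.46. In subclone2 against subclone1, 2 of 56 had a lower ratio and the quartiles were -0.56 and 0.059. In subclone2 against the parent, 38 of 70 lay above hsa-miR-210 and 32 below.

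The same shape, higher in subclone1 than in both other strains by the rule above, was seen in 6 of 192 miRNAs (3.12%). Beside hsa-miR-210 they were hsa-miR-1, hsa-miR-378c, hsa-miR-152, hsa-miR-1307-5p and hsa-miR-331-3p. Of these, hsa-miR-1, hsa-miR-378c and hsa-miR-1307-5p were under 10 CPM in both the parent and subclone2. They passed the minimum level only through subclone1, so the minimum itself favours this shape. For hsa-miR-210, hsa-miR-1 and hsa-miR-378c the interval of subclone2 over the parent included 1. In hsa-miR-331-3p, known to repress ERBB2, subclone2 was itself called higher than the parent, with 33.8, 202 and 87.8 CPM in the parent, subclone1 and subclone2. hsa-miR-1307-5p had 5.95, 50.7 and 9.85 CPM. For hsa-miR-1307-5p the log2 ratio of subclone2 over the parent was 0.73, under the threshold, with an interval that excluded a ratio of 1. With TMM scaling 4 of the 6 remained, hsa-miR-210 among them, and hsa-miR-152 and hsa-miR-331-3p did not.

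The miRNAs whose pattern over the 3 libraries was most like that of hsa-miR-210 were then ranked, by the distance between log2 CPM values centred on their own mean. Among 191 other miRNAs averaging 10 CPM or more, the median distance was 1.14. The nearest was hsa-miR-1 at 0.28, followed by hsa-miR-378c at 0.33, hsa-miR-589-5p at 0.39, hsa-miR-181c-5p at 0.44, hsa-miR-152 at 0.48, hsa-miR-33a-5p at 0.50, hsa-miR-1254 at 0.53 and hsa-miR-27a-3p at 0.58. The order describes 3 libraries only, and hsa-miR-1 and hsa-miR-378c passed the minimum of 10 CPM only through subclone1, where they peak. It depended on the measure, as 4 of the 8 names remained with a minimum of 20 CPM and 1 of 8 when correlation replaced distance. The mature sequences of the nearest called miRNAs are shown, with the seed in capitals, beside that of hsa-miR-210-3p. hsa-miR-1 and hsa-miR-152 were listed without an arm and are given as their 3p strands.
hsa-miR-210-3p: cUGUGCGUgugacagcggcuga
hsa-miR-1: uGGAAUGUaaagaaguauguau
hsa-miR-378c: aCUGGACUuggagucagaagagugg
hsa-miR-152: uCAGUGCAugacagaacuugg

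Their seeds differ from each other and from that of hsa-miR-210. In all, 0 of the other kept miRNAs with a RefSeq sequence carried its seed. hsa-miR-1, known as an abundant miRNA of heart and skeletal muscle, had 53, 77 and 32 reads in the parent, subclone1 and subclone2, or 6.71, 21.6 and 7.01 CPM. Its log2 ratio was 1.68 in subclone1 over the parent (interval 1.16 to 2.22) and -1.61 in subclone2 over subclone1 (-2.26 to -1.01). It rested on fewer reads than hsa-miR-210 and its intervals were wider. The other muscle markers were near 0, with 1 read of hsa-miR-133a in each library and 6, 5 and 3 reads of hsa-miR-206. Whether the source of hsa-miR-1 has any part in the level of hsa-miR-210 was not tested.

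hsa-miR-378c had 70, 107 and 43 reads (8.86, 29.96 and 9.41 CPM) in the parent, subclone1 and subclone2. It shares a run of 20 bases with the more abundant hsa-miR-378a-3p, which makes its level uncertain. hsa-miR-152, which represses the DNA methyltransferase DNMT1, had 355, 503 and 288 reads (44.9, 141 and 63.0 CPM). Unlike hsa-miR-210 it was also higher in subclone2 than in the parent, with a log2 ratio of 0.49 (0.26 to 0.72), below the 2-fold threshold.

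The remaining alike miRNAs were raised less in subclone1. hsa-miR-33a-5p, which lies within the SREBF2 gene and represses the cholesterol exporter ABCA1, had 17.97, 30.2 and 17.3 CPM. hsa-miR-589-5p had 10.1, 19.6 and 10.3 CPM, and its log2 ratio of 0.95 in subclone1 missed the 2-fold threshold. hsa-miR-1254 had 12.0, 17.4 and 7.88 CPM, and was the 1 of these whose parent level lay above its own mean.

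**Figure D3:**
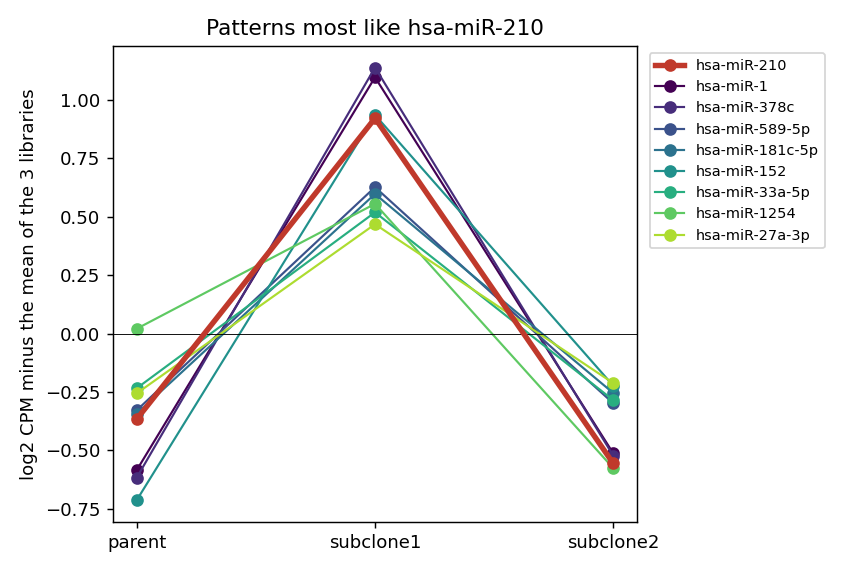
log2 CPM minus the mean of the 3 libraries (vertical axis) in the parent, subclone1 and subclone2 (horizontal axis) for hsa-miR-210 (thick red line) and the 8 miRNAs nearest to it, 1 library per strain. All 9 peak in subclone1, where hsa-miR-210 lies 0.92 above its mean, and hsa-miR-1, hsa-miR-378c and hsa-miR-152 peak slightly higher.

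The other miRNAs of the hypoxia response were examined as lists, written from general knowledge of miRNAs induced under low oxygen (16 names) and of miRNAs repressed by it or directed at HIF1A mRNA (7 names). All 23 were listed in the tables. Of the 16 hypoxia-induced names, 13 passed the minimum level in each comparison, 1 had a single read (hsa-miR-155-5p, in subclone1), and hsa-miR-373-3p and hsa-miR-424-5p had 0 reads in all libraries, which allows up to 0.380, 0.840 and 0.657 CPM in the parent, subclone1 and subclone2 (3 reads of the total).

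Among the 13 kept hypoxia-induced miRNAs, 0 were called in any comparison. Of all kept miRNAs, 9.90% were called higher and 3.12% lower in subclone1 over the parent. The shares were 5.88% and 4.81% in subclone2 over the parent, and 1.57% and 4.19% in subclone2 over subclone1. At such shares few calls fall among 13 miRNAs, so the 0 is not read as a lack of response. Scaled to the sum of hsa-miR-16-5p and hsa-miR-191-5p, 3 of the 13 were called higher in subclone1 than in the parent (hsa-miR-181c-5p, hsa-miR-23b-3p and hsa-miR-27a-3p). So were 36 of all 192. The median log2 ratio of the 13 was 0.17 in subclone1 over the parent, beside 0.017 for all kept miRNAs, and 11 of the 13 lay above 0, as did 52.1% of all kept. Of these 11, hsa-miR-181b-5p was at 1.4e-04, and with TMM scaling 10 of the 13 lay above 0, as did 44.8% of all kept. The 13 include near copies and members of shared clusters, so they are not separate measurements, and no direction is drawn from this count. In subclone2 over the parent the median was -0.030, beside -0.15. In subclone2 over subclone1 it was -0.27, beside -0.17, and all 13 lay below 0, as did 66.5% of all kept. TMM scaling moved these medians to 0.11, 0.14 and -0.041. With it 6 of the 13 lay above 0 in subclone2 over subclone1 and 9 of 13 in subclone2 over the parent, so no direction is drawn for the list in either comparison. The member with the largest ratio in subclone1 over the parent was hsa-miR-181c-5p, whose interval overlapped that of hsa-miR-210.

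hsa-miR-181c-5p had 150, 130 and 92 reads in the parent, subclone1 and subclone2, or 18.98, 36.4 and 20.1 CPM. Its log2 ratio in subclone1 over the parent was 0.94 (0.59 to 1.29), and in subclone2 over the parent 0.088 (-0.31 to 0.47). It shared the shape of hsa-miR-210 below the 2-fold threshold. Its sequence is that of the more abundant hsa-miR-181a-5p with a single base left out, so its level is uncertain as well. In its family, hsa-miR-181a-5p had 1849, 1957 and 1224 CPM and hsa-miR-181b-5p 769, 769 and 523 CPM. In both of these subclone2 was lowest and subclone1 stood near the parent. hsa-miR-181d, chosen after its values were seen, had 192, 321 and 256 CPM and was highest in subclone1, as was hsa-miR-181a-3p with 29.4, 36.7 and 32.4 CPM. The interval of hsa-miR-181a-3p in subclone2 over subclone1 included 1. hsa-miR-181a-2-3p went the other way, with 66.1, 43.1 and 27.6 CPM. Its log2 ratio over the parent was -0.61 (-0.88 to -0.35) in subclone1 and -1.26 in subclone2, where it was called lower.

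The pair hsa-miR-27a-3p and hsa-miR-27b-3p came next. hsa-miR-27a-3p, which restrains fat cell differentiation, had 962, 1590 and 992 CPM, and hsa-miR-27b-3p 984, 1401 and 961 CPM. Their log2 ratios in subclone1 over the parent were 0.72 (0.67 to 0.77) and 0.51 (0.46 to 0.56), and subclone2 stood near the parent in both. The pair shares a run of 18 bases, and the division of reads between them is uncertain.

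hsa-miR-23a-3p had 708, 826 and 705 CPM and its near copy hsa-miR-23b-3p, also sharing 18 bases and uncertain, 164, 248 and 223 CPM. hsa-miR-24-3p, from the same hairpin clusters, had 520, 573 and 526 CPM. The abundant hsa-miR-103a-3p (14080, 15873 and 13129 CPM) and hsa-miR-107 (8106, 9073 and 7939 CPM) share 21 bases and are uncertain. Their log2 ratios in subclone1 were 0.17 and 0.16. hsa-miR-26a-5p went the other way, with 451, 338 and 299 CPM, and hsa-miR-26b-5p had 495, 490 and 338 CPM.

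Of the 7 names repressed under low oxygen or directed at HIF1A, 3 were kept. hsa-miR-17-5p had 66.4, 32.8 and 28.7 CPM and hsa-miR-20a-5p 47.5, 18.2 and 12.9 CPM in the parent, subclone1 and subclone2. Both come from the miR-17-92 cluster, and both were called lower in each subclone with the library total. Over the parent, 6 of all 192 miRNAs (3.12%) were called lower in subclone1 and 9 of 187 (4.81%) in subclone2. The calls of hsa-miR-17-5p and hsa-miR-20a-5p depended on the scaling. With the sum of hsa-miR-16-5p and hsa-miR-191-5p, the log2 ratios over the parent were -0.57 for hsa-miR-17-5p and -0.92 for hsa-miR-20a-5p in subclone1, short of 2-fold. In subclone2 they were -0.83, also short of it, and -1.49. With 5 counts added, hsa-miR-17-5p in subclone1 was at -0.97 and lost its call. hsa-miR-22-3p had 232, 270 and 226 CPM. The median log2 ratio of the 3 was -1.02 in subclone1 and -1.21 in subclone2 over the parent, and -0.26 between the subclones. For all kept miRNAs these medians were 0.017, -0.15 and -0.17. The cluster member hsa-miR-18a-5p had 30, 4 and 3 reads, and hsa-miR-20b-5p, hsa-miR-199a-5p and hsa-miR-519c-3p had 0.

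**Figure D4:**
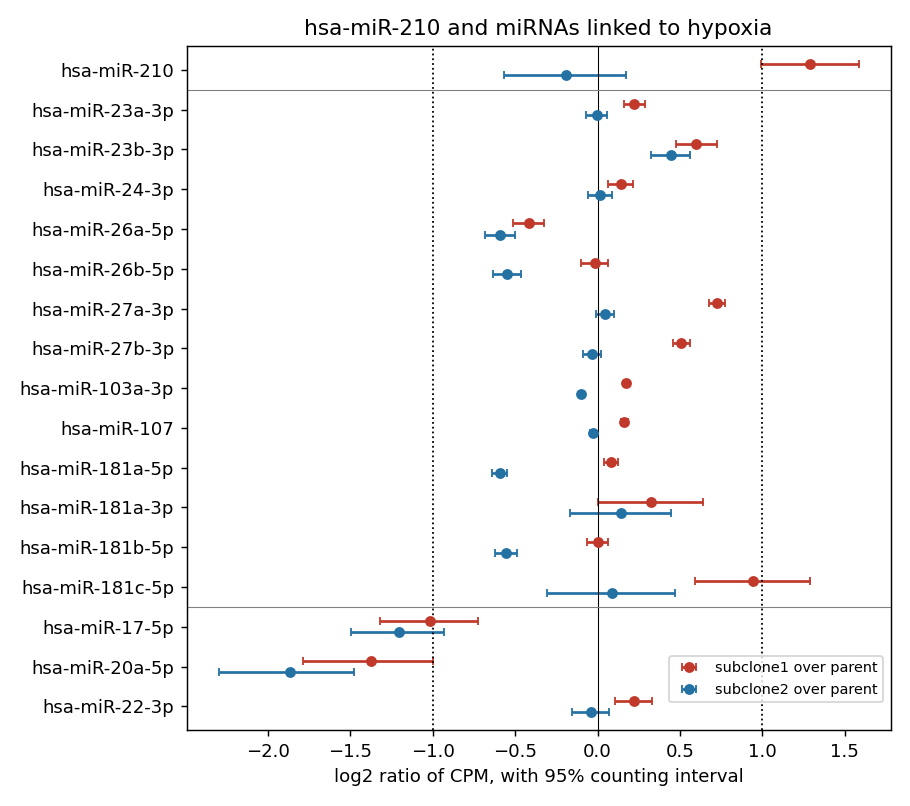
log2 ratio of CPM over the parent (horizontal axis, with 95% counting intervals) in subclone1 (red) and subclone2 (blue) for hsa-miR-210 (top), the 13 kept hypoxia-induced miRNAs (middle) and the 3 kept miRNAs repressed by hypoxia or directed at HIF1A (bottom), with dotted lines at 2-fold. hsa-miR-210 at 1.29 is the single miRNA plotted beyond 2-fold upward, while hsa-miR-17-5p and hsa-miR-20a-5p lie beyond 2-fold downward in both subclones at this scaling.

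The chromosomal surroundings of MIR210 were inspected for a shared change. RefSeq places 7 other hairpin genes within 5 Mb on chromosome 11, and 6 mature names from 4 of them were listed. Of these names, 3 had 0 reads and 3 had at least 10 over the libraries. hsa-miR-675-5p, which is cut from the imprinted transcript H19 about 1429 kb away, had 45, 98 and 149 reads (5.69, 27.4 and 32.6 CPM) in the parent, subclone1 and subclone2. By the rule above it was higher in both subclones, whereas hsa-miR-210 was higher in subclone1 alone. In the parent hsa-miR-675-5p was under 10 CPM, and it passed the minimum level only through the subclones. hsa-miR-675-3p, the other arm, had 0, 4 and 7 reads, and hsa-miR-4687-3p, about 3288 kb away, had 17, 7 and 4, too few to show or exclude a pattern like that of hsa-miR-210.

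Identity and cell type were checked from marker miRNAs. hsa-miR-122-5p, which makes up much of the miRNA of normal hepatocytes, was nearly absent, with 53, 19 and 18 reads (6.71, 5.32 and 3.94 CPM) in the parent, subclone1 and subclone2. The blood markers hsa-miR-142-3p, hsa-miR-142-5p, hsa-miR-150-5p, hsa-miR-451a and hsa-miR-223-3p had at most 5 reads in any library. hsa-miR-126-3p of endothelium had at most 2, hsa-miR-143-3p and hsa-miR-145-5p of mesenchyme at most 8, and hsa-miR-9-5p and hsa-miR-124-3p of neurons at most 4. Of the markers of other cell types, hsa-miR-1 was the single one with more than 8 reads in a library.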

How the data were processed

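Small RNA libraries were made from 1 ug of total RNA per strain with the Illumina TruSeq Small RNA kit. The authors deposited unscaled read counts per mature miRNA name, 1 library for each of 3 strains. The submitters' processing notes name CASAVA 1.4 and hg19. Adapter trimming, aligner, mismatch limit and miRBase release are not given in the sources used here, and reads shared by related miRNAs may be divided in an unknown way. Each library was scaled to its own total, and 0.5 counts were added for log2 ratios. Ratio intervals were exact conditional binomial, level intervals Clopper-Pearson, both at 95% (Python 3.11.15, scipy 1.17.1). TMM factors were from edgeR 4.0.16 in R 4.3.3. The ratio code was run on simulated counts with known folds, counting error only and the library totals supplied. That run checks the computation and cannot speak to spread between cultures, to the scaling or to the division of shared reads. A run of 15 or more bases in common with another kept miRNA marked a level as uncertain, and 172 of the 192 kept names had a RefSeq sequence. Named are hsa-miR-210, the 8 miRNAs of most like pattern, those of the same shape (chosen after their values were seen), the kept members of the hypoxia lists, neighbours in sequence or position, and the cell type markers. The member and the lists were chosen with earlier results of these data known. The total counts ranged from 3570864 to 7902438, at which 10 CPM stands for 35.7 to 79.0 reads. Alternatives were 4 other scalings, 5 counts added, no minimum level, a 1.5-fold threshold and an interval wholly beyond 2-fold.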

Additional observations from a re-analysis of the deposited data

Results flagged for a closer look

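hsa-miR-210 was flagged because its ratios over the parent had opposite signs in the subclones, with a log2 ratio of 1.29 in subclone1 and -0.19 in subclone2. The interval of subclone2 over the parent included 1, and its sign turned to 0.19 when the sum of hsa-miR-16-5p and hsa-miR-191-5p replaced the library total, so no level below the parent was shown. The difference between the subclones was -1.48 on the log2 scale, with 203 reads in subclone1 and 93 in subclone2. It was not tested between conditions, since each strain had 1 library.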

How the results depend on the processing

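No paired analysis was possible because every strain had a single library, and leaving out a library was not possible for the same reason. Under 8 alternatives, the ratio of hsa-miR-210 in subclone2 over subclone1 ranged from -1.55 to -1.24 and remained called in all. In subclone1 over the parent it ranged from 1.22 to 1.74 and lost its call under 1 of 8, at the unmoved value of 1.29, when the interval had to lie wholly beyond 2-fold. In subclone2 over the parent it moved outside its interval once, to 0.19, when the sum of hsa-miR-16-5p and hsa-miR-191-5p replaced the library total. That sum was itself lower in both subclones, with 4703, 3411 and 3645 CPM for hsa-miR-191-5p. TMM scaling moved the median of all miRNAs by 0.17 in subclone2 over the parent and by 0.23 in subclone2 over subclone1.

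The number of called miRNAs (25, 20 and 11 in subclone1 over parent, subclone2 over parent and subclone2 over subclone1) followed the thresholds by construction, with 67, 75 and 33 without a minimum level, 56, 50 and 36 at 1.5-fold, and 13, 13 and 5 with the interval wholly beyond 2-fold. In some settings the medians of the hypoxia-induced list moved by more than the median half-width of their members' intervals. These were median-of-ratios factors (0.11, 0.12 and -0.060), TMM factors for subclone2 (0.14 over the parent and -0.041 over subclone1) and no minimum between the subclones (-0.40). With median-of-ratios factors the move in subclone1 over the parent was -0.066, against a half-width of 0.065. The median of the repressed list in subclone2 over the parent moved to -1.54 without a minimum. The set of 8 most alike miRNAs held 4 of its names with a minimum of 20 CPM and 1 with correlation. The miRNAs higher in subclone1 than in both others numbered 4 to 6 under 4 scalings, chosen after seeing the data, and included hsa-miR-210 each time. The ratios of hsa-miR-17-5p and hsa-miR-20a-5p, recomputed under 5 settings also chosen after seeing the data, lost 4 of 20 calls. At 93 reads in subclone2, counting error limits what can be resolved against the parent.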
